A study of Canis lupus familiaris with 20 samples.

Results

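The mitochondrial ribosomal protein genes were taken as every array probe whose gene name begins with MRPL or MRPS followed by a number. The rule uses names only and no measured value, and it gave 72 probes for 58 gene symbols among the 42034 probes of the array. Of these probes, 68 were well above background in at least 2 dogs and 67 could be tested, which left 55 genes, 32 named MRPL and 23 named MRPS. MRPL35, MRPL43 and MRPL54 were too dim to be tested, as was a probe of MRPS7, and a probe of MRPS26 had flagged spots. Another probe stood for MRPS7 and for MRPS26. Of the 67 tested probes, 62 were well above background on all 20 arrays, and no member was saturated on any array. MRPS14 passed this filter through normal dogs alone, and a second probe of MRPL21 through affected dogs alone.

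RNA was prepared from muscle of 10 dogs aged 2 years. The labels do not name the muscle, the sex or the dystrophin mutation. There were 4 dogs labelled normal, 4 labelled affected by Duchenne muscular dystrophy (DMD, the loss of the muscle membrane protein dystrophin), and 2 labelled escaper, a name used for dystrophic dogs whose disease is mild. RNA of every dog went on 2 arrays with swapped dyes against RNA of 1 normal individual that served as reference for all arrays. All values are log2 ratios of dog over this reference, averaged over both arrays of a dog, so 0 means the level of the reference and −1 means 2-fold less. Every slide carried dogs of 1 group, and both escapers shared a slide, so slide and escaper group cannot be told apart.

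Mitochondrial ribosomes translate the few proteins that the mitochondrial genome encodes, all of them core parts of the respiratory chain and the ATP synthase. Their RNA comes from mitochondrial DNA, while all of their proteins are encoded in the nucleus, made on cytosolic ribosomes and imported. MRPL genes name proteins of the large subunit, which forms peptide bonds, and MRPS genes those of the small subunit, which reads the messenger RNA. A few names mislead: MRPS18A and MRPS30 sit in the large subunit, and the MRPS36 product is now known as a component of the 2-oxoglutarate dehydrogenase complex.

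The array reads each gene through a probe of 60 bases. The probes of the genes whose values the results turn on are shown here 5′ to 3′ as the array files give them, with the files' own coordinates, whose genome build is not given in the sources used here. Each has at least 1 reading frame without a stop codon. MRPL1 (chr32:5360547-5364703, plus strand), MRPL13 (chr13:22316149-22316208, minus strand) and MRPL30 (chr10:46618168-46618227, minus strand) are large subunit genes. MRPL36 (chr34:14007666-14007725, plus strand) is a large subunit gene too, and MRPS18C (chr32:10256659-10257490, plus strand) is a small subunit gene. The MRPL1 and MRPS18C coordinates span 4157 and 832 bases, so those probes cross introns and match spliced RNA.
MRPL1: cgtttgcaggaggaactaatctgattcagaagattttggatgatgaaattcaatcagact
MRPL13: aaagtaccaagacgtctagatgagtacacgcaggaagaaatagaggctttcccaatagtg
MRPL30: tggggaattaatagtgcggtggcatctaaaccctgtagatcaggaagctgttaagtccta
MRPL36: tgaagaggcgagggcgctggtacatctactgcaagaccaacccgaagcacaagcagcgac
MRPS18C: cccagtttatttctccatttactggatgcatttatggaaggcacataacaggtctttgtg

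Across the arrays, 30.5% to 60.2% of probes were well above background, and the paired arrays of each dog correlated over all tested probes, least in affected 4 (r = 0.627) and most in escaper 2 (r = 0.939). The fibre markers of skeletal muscle were present: 6 of 7 measured ones, among them TTN, DES and MB, were well above background on all 20 arrays. Their mean log2 ratio ran from 0.56 to 0.82 in normal dogs and from −1.62 to 0.53 in affected dogs, and was 0.57 and −2.40 in escapers 1 and 2. Affected 1 and escaper 2 held the lowest values. Macrophage markers were well above background on all arrays for 8 of 11 genes and matrix markers for 6 of 11.

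In affected dogs the mitoribosomal genes as a group were lower than in normal dogs, by a small amount per gene. The median difference over the 55 genes was −0.28, against 0.02 over all 16008 tested probes, and 44 of 55 differences were below 0, against 47% of all probes. No single member passed limma's test after Benjamini-Hochberg adjustment over all probes, where 0.0187% of probes did, and the smallest adjusted p of a member was 0.2217. At an unadjusted p under 0.05, 14 of 55 genes (25.5%) were lower, against 7.38% of all probes, and 0 were higher, against 5.06%. In 11 genes every affected dog lay below every normal dog, a separation that 7.42% of all probes showed. The count of 14 was 7 without normal 4 and 9 without normal 3, where 4.57% and 5.23% of all probes were lower. It was 20 when the fit held only normal and affected dogs, where 9.89% of all probes were lower. Leaving out either escaper gave that same result, because a lone escaper adds no spread to the fit.

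In the escapers the same set lay lower still. The median difference from normal dogs was −0.67, against −0.0012 over all probes, and 54 of 55 genes were below 0, against 50.2%. Again no member passed limma's adjusted test, which 0% of all probes passed, while 27 of 55 genes (49.1%) had an unadjusted p under 0.05 and were lower, against 8.78% of all probes. None of the 55 was higher at that level, against 9.67% of all probes. In 27 genes both escapers lay below every normal dog, against 15.7% of all probes. With slide as a random block (consensus correlation −0.27), or with all 20 arrays and the dog as block, 14 members passed the adjusted test, as did 3.26% and 6.67% of all probes. The slide correlation is negative, which makes the SE of a group mean smaller than for independent dogs. The fit of all arrays counts 20 arrays where there are 10 dogs. The 14 members of either fit are therefore no added evidence. This comparison shares its normal dogs with the affected comparison, so the 2 are not independent.

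Most of the escaper difference came from escaper 2. Its median over the 55 genes was −0.62, while that of escaper 1 was −0.03. The medians of the normal dogs were 0.19, 0.18, 0.22 and 0.43 in normal 1 to 4, and those of affected 1 to 4 were 0.15, −0.01, −0.04 and −0.14. All normal dogs lay above all others by this median, though normal 2 and affected 1 were close. On the Cy5 arrays alone affected 1 (0.14) lay above normal 2 (0.11), and on the Cy3 arrays below it (0.06 against 0.30). By the median over both arrays, escaper 1 lay within the range of the affected dogs, and escaper 2 stood well below every other dog. Escaper 2 was the lowest of all 10 dogs in 42 of 55 genes (76.4%), a rank it held in 23.3% of all tested probes. It lay below every normal dog in 50 genes (39% of all probes), and escaper 1 did so in 29 (26.7% of all probes).

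**Figure D1:**
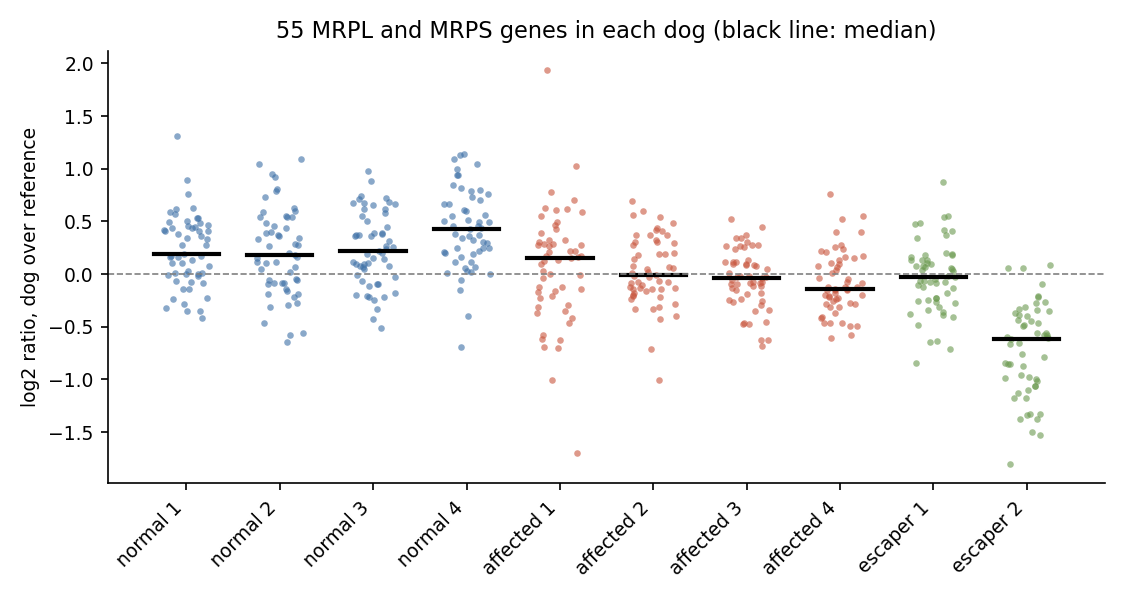
Log2 ratio of dog over reference (y axis) for the 55 MRPL and MRPS genes, 1 point per gene, in each of the 10 dogs (x axis), with the median as a black line. The 4 normal medians lie from 0.18 to 0.43, those of the affected dogs from −0.14 to 0.15, and escaper 2 lies at −0.62 while escaper 1 lies at −0.03.

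Leaving out a dog at a time shows the same dependence. Without escaper 2 the median of escaper minus normal was −0.29 and 10 genes were lower at an unadjusted p under 0.05, against 2.07% of all probes. Without escaper 1 the median was −0.97, 37 genes were lower, against 16.9% of all probes, and 30 members (of 55) passed the adjusted test of limma, as did 24.5% of all probes. In both cases the lone escaper is assumed to vary like the dogs of the other groups. For affected minus normal, the median moved only between −0.32 and −0.20 over all dogs left out.

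The direct test between the dystrophic groups, escaper minus affected, gave a median of −0.35, against −0.0078 over all probes. A total of 50 of 55 genes were below 0, against 51% of all probes, and 8 genes (14.5%) were lower at an unadjusted p under 0.05, against 2.26% of all probes. No gene was higher at that level, against 2.95%, and no member or other probe (0%) passed limma's adjusted test. In 9 genes both escapers lay below every affected dog, against 4.15% of all probes. Without escaper 2 the median was −0.01 and 1 gene was lower, against 0.987% of all probes, so this difference rests on that dog, and without escaper 1 it was −0.73. In that fit 30 genes were lower, against 10.9% of all probes, and 12 members passed the adjusted test, as did 11% of all probes.

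**Figure D2:**
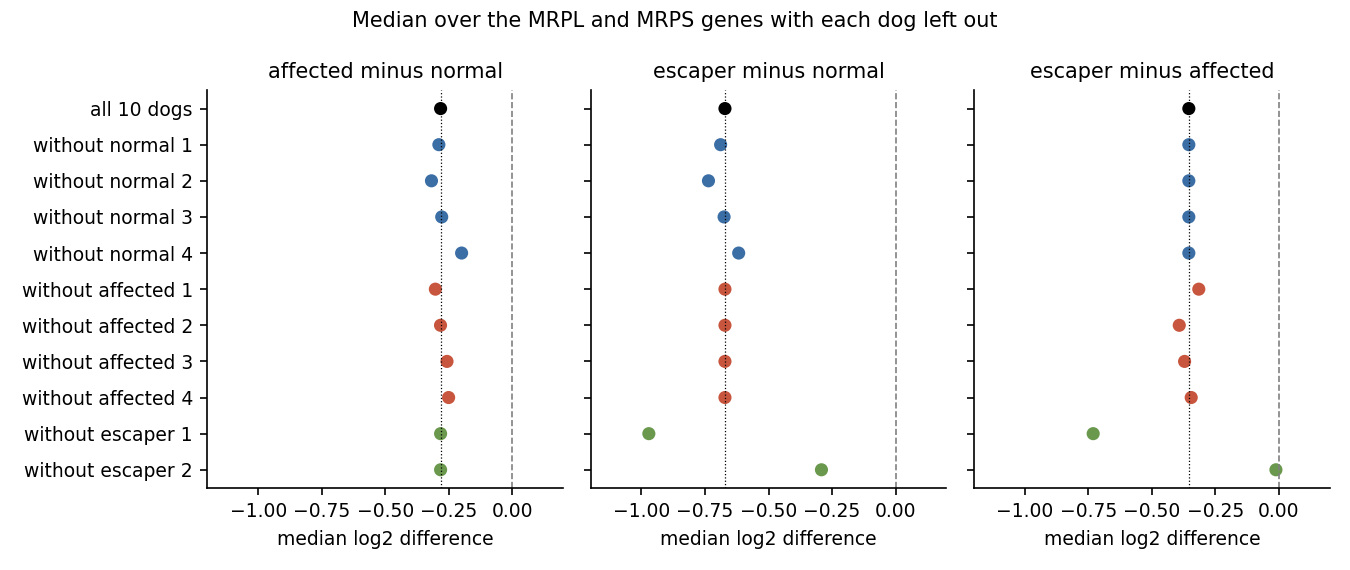
Median log2 difference over the MRPL and MRPS genes (x axis) in each of the 3 comparisons, with all 10 dogs and with each dog left out (y axis, coloured by its group). The affected minus normal median stays between −0.32 and −0.20, whereas leaving out escaper 2 moves escaper minus normal to −0.29 and escaper minus affected to −0.01.

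MRPL1 had the smallest p of all members in each of the 3 comparisons. Its product belongs to the L1 stalk of the large subunit, the mobile arm beside the site where spent transfer RNA leaves. Ratios were 0.90, 0.54, 0.55 and 0.94 in normal dogs, 0.28, −0.02, 0.11 and 0.14 in affected dogs, and −0.84 and −0.60 in the escapers. The groups did not overlap at any step, and here escaper 1 was the lowest dog of all. The difference was −0.61 ± 0.14 (SE, adjusted p = 0.2217, limma) for affected minus normal and −1.46 ± 0.18 (adjusted p = 0.0657) for escaper minus normal, a 2.74-fold lower level. For escaper minus affected it was −0.85 ± 0.18, with a 95% confidence interval from −1.24 to −0.45 and an adjusted p of 0.7998. The adjusted p of escaper minus normal was 0.0385 without affected 1, and ran from 0.0044 to 0.29 over all alternatives tried.

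MRPL15, whose product is a large subunit protein, was the other of 2 genes in which normal, affected and escaper dogs formed 3 steps without overlap, an order that 0.106% of all tested probes showed. The normal dogs were tightly grouped at 0.38, 0.37, 0.39 and 0.50, affected dogs lay at −0.04, −0.33, −0.03 and 0.22, and the escapers at −0.36 and −1.07. Its differences were −0.45 ± 0.18 and −1.12 ± 0.22 from normal in affected and escaper dogs (SE, adjusted p = 0.3570 and 0.1789, limma).

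MRPL13, another large subunit gene, separated the escapers from all other dogs. Normal dogs had 0.16, −0.27, −0.07 and 0.30, affected dogs 0.12, −0.07, −0.29 and −0.13, and escapers −0.64 and −0.86. Normal and affected dogs overlapped, with a difference of −0.12 and a 95% confidence interval from −0.48 to 0.24. Escaper minus affected was −0.66 ± 0.19 (SE, adjusted p = 0.7998, limma). MRPL42 gave the same layout at a smaller size: normal dogs lay from −0.03 to 0.38, affected dogs from 0.19 to 0.53, and the escapers at −0.12 and −0.22.

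MRPL39 and MRPL32 complete the 6 genes with the smallest p in escaper minus affected, at −0.52 ± 0.18 and −0.78 ± 0.28 (SE). The MRPL32 product is cut by a mitochondrial protease before it enters the ribosome. Its affected dogs lay from 0.14 to 0.70 and its escapers at 0.10 and −0.95, so escaper 1 was just below the affected range. All 8 genes lower at an unadjusted p under 0.05 in this comparison were MRPL genes. The difference between the subunits was not tested.

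Several genes differed between normal and affected dogs as much as MRPL1 but showed less of a further step in the escapers. MRPL30, a large subunit gene, had 1.31, 1.09, 0.88 and 1.0005 in normal dogs, 0.18, 0.41, 0.37 and 0.76 in affected dogs, and 0.18 and 0.06 in the escapers. Every dystrophic dog lay below every normal dog, while the affected and escaper dogs overlapped. The differences from normal were −0.64 ± 0.16 in affected and −0.95 ± 0.19 in escaper dogs (SE, adjusted p = 0.2301 and 0.1789, limma).

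MRPL36, among the smallest proteins of the large subunit, gave 0.50, 0.36, 0.37 and 0.61 in normal dogs, −0.30, −0.09, 0.09 and −0.20 in affected dogs, and −0.09 and −0.65 in escapers. A second probe further along the gene gave like differences, −0.73 and −0.94, beside −0.58 and −0.83 of the first. Both probes thus put all dystrophic dogs below the normal dogs.

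MRPS18C, a small subunit gene, had 0.63, 0.79, 0.67 and 1.05 in normal dogs, 0.13, 0.20, 0.34 and 0.27 in affected dogs, and 0.18 and −0.61 in the escapers. Escaper 1 lay within the affected dogs and escaper 2 below them. MRPS25, also of the small subunit, had the largest difference of affected minus normal among the members. Normal dogs had 0.57, 0.46, 0.68 and 0.80, affected dogs −0.17, −0.20, −0.02 and −0.46, and escapers 0.13 and −0.99. Its difference was −0.84 ± 0.22 (SE, adjusted p = 0.2438, limma), and it was the only member to pass the adjusted test in that comparison under any alternative, at 0.0417 when the fit held only normal and affected dogs, where 0.706% of all probes passed. MRPL27, near the peptidyl transferase centre, had −0.50 ± 0.17 in affected minus normal (SE), with affected 2 overlapping the normal dogs.

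**Figure D3:**
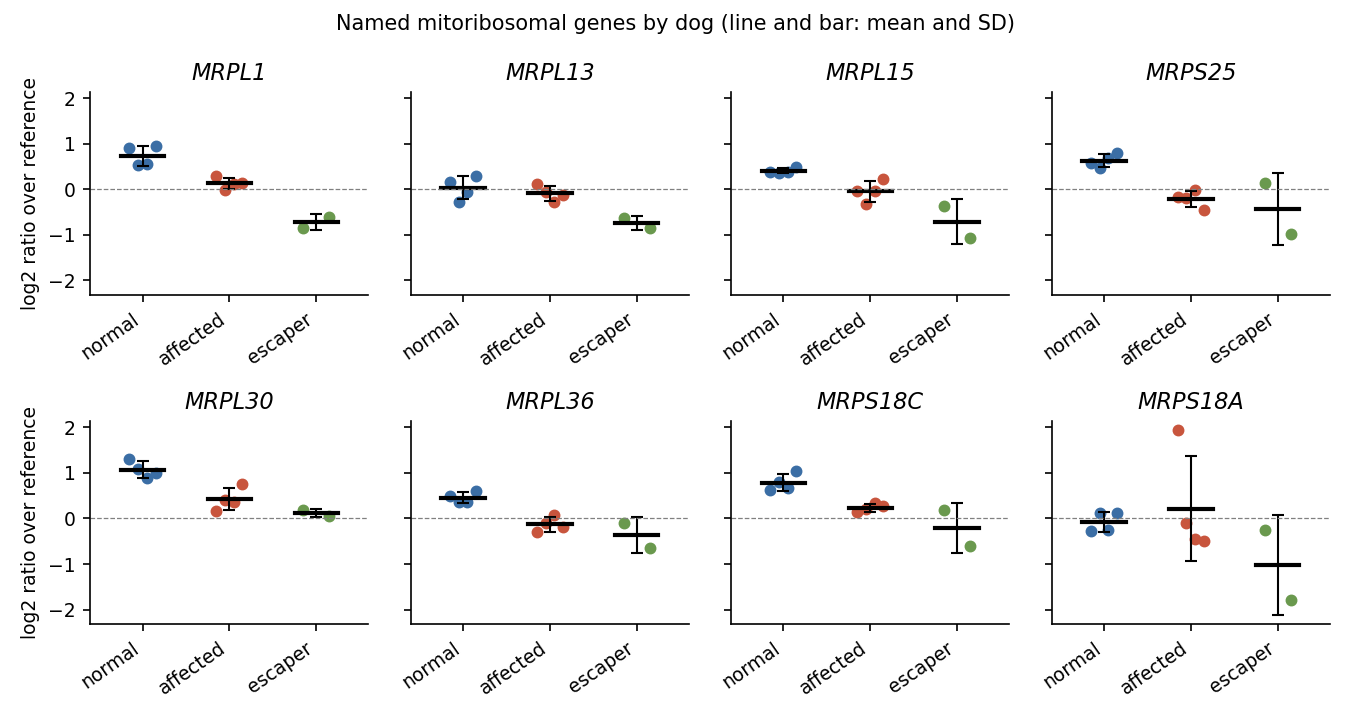
Log2 ratio over the reference (y axis) of 8 named genes by group (x axis), 1 point per dog, with the group mean and SD in black. MRPL1 falls into 3 steps without overlap, MRPL13 sets the escapers apart, MRPL30, MRPL36 and MRPS25 set the normal dogs apart, and MRPS18A varies most, from 1.93 in affected 1 to −1.80 in escaper 2.

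Some members did not follow the group. In affected minus normal, 11 genes were above 0 and none reached an unadjusted p under 0.05. The 6 with the smallest p were MRPL19 (0.29 ± 0.19, SE), MRPL42 (0.18 ± 0.14), MRPS23 (0.19 ± 0.18), MRPS5 (0.24 ± 0.34), MRPL21 (0.18 ± 0.31) and MRPS18A (0.29 ± 0.54). Of these, MRPL21 was below 0 under 2 alternatives, and MRPL42 and MRPS18A under 1 each. In escaper minus normal MRPL21 alone was above 0, by 0.02, with a 95% confidence interval from −0.82 to 0.87, and it was below 0 under 7 alternatives, among them median centring of the arrays instead of loess (−0.59) and the fit without escaper 2 (−0.23). Its second probe was well above background on 0 of 8 normal, 5 of 8 affected and 2 of 4 escaper arrays, so its level in normal dogs is known only as a bound and no fold is given. MRPL49 was well above background on 4 of 8 normal, 4 of 8 affected and 0 of 4 escaper arrays, and its escaper level is likewise only a bound.

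Between escaper and affected dogs, 5 genes were above 0: MRPS26, MRPS12, MRPS6, MRPL28 and MRPL47. Their differences ran from 0.06 to 0.12, and all their intervals reached below −0.38 and above 0.58. With median centring all 55 genes were below 0. For MRPS12, whose product shapes the decoding centre, affected minus normal was −0.70 ± 0.28 (SE). Its affected dogs were spread from −0.70 in affected 1 to 0.56 in affected 2, which overlapped the normal range of 0.40 to 1.09.

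MRPS18A, a large subunit protein despite its name, had the widest range of the set. Normal dogs lay at −0.28, 0.12, −0.25 and 0.11, affected 1 at 1.93, affected 2 to 4 at −0.10, −0.46 and −0.49, and the escapers at −0.25 and −1.80. Affected 1 was the highest and escaper 2 the lowest value of any member in any dog. In MRPS7, a small subunit gene, affected 1 had −1.70 while affected 2 to 4 lay between −0.41 and −0.21. The naming rule did not choose MRPS7, which is given for this value after it was seen.

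For 11 genes 2 or more probes could be tested, which gives a check within the arrays. All 11 genes had the same sign over their probes in escaper minus normal, 9 did in affected minus normal and 10 in escaper minus affected. The median gap between the highest and the lowest probe of a gene was 0.10, 0.14 and 0.06 in affected minus normal, escaper minus normal and escaper minus affected. MRPL24 and MRPL9 had opposite signs in affected minus normal, with differences between −0.11 and 0.02, and MRPL21 in escaper minus affected. MRPL38, of the central protuberance, had the largest gap between its probes in affected minus normal, −0.30 against −0.02. MRPL45, which holds the ribosome at the inner membrane, had −0.72 and −0.56 in escaper minus normal. MRPL20 had −0.55 and −0.60, MRPS5 −0.63 and −0.49, and MRPS6 −0.30 and −0.47. The MRPL20 probes share most of their sequence, so they are not independent readings of the gene.

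MRPL18, which lies in the central protuberance, had 3 tested probes with −0.62, −0.49 and −0.69 in escaper minus normal. The first and the last share 20 bases, chr1:52085908-52085927, shown in capitals because all of them are shared.
MRPL18: TGGACAGGAGAGAATTATCT
Those 2 values are therefore not independent readings of the gene.

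Split by name, MRPS18A, MRPS30 and MRPS36 count as MRPS genes although they are not small subunit proteins. In affected dogs 6 of 32 MRPL genes and 8 of 23 MRPS genes were lower at an unadjusted p under 0.05, against 7.38% of all probes. Their medians were −0.26 and −0.32. In escaper minus normal the counts were 18 of 32 and 9 of 23, against 8.78% of all probes, with medians of −0.68 and −0.63. The medians of escaper minus affected were −0.44 for MRPL and −0.29 for MRPS genes. Members numbered after a bacterial ribosomal protein had medians of −0.31 and −0.63 in affected and escaper dogs against normal (32 genes). Members with numbers that only mitochondrial ribosomes have gave −0.28 and −0.72 (23 genes). The quartiles over all 55 genes were −0.51 and −0.09 in affected minus normal and −0.87 and −0.34 in escaper minus normal. The difference between the parts of either split was not tested.

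**Figure D4:**
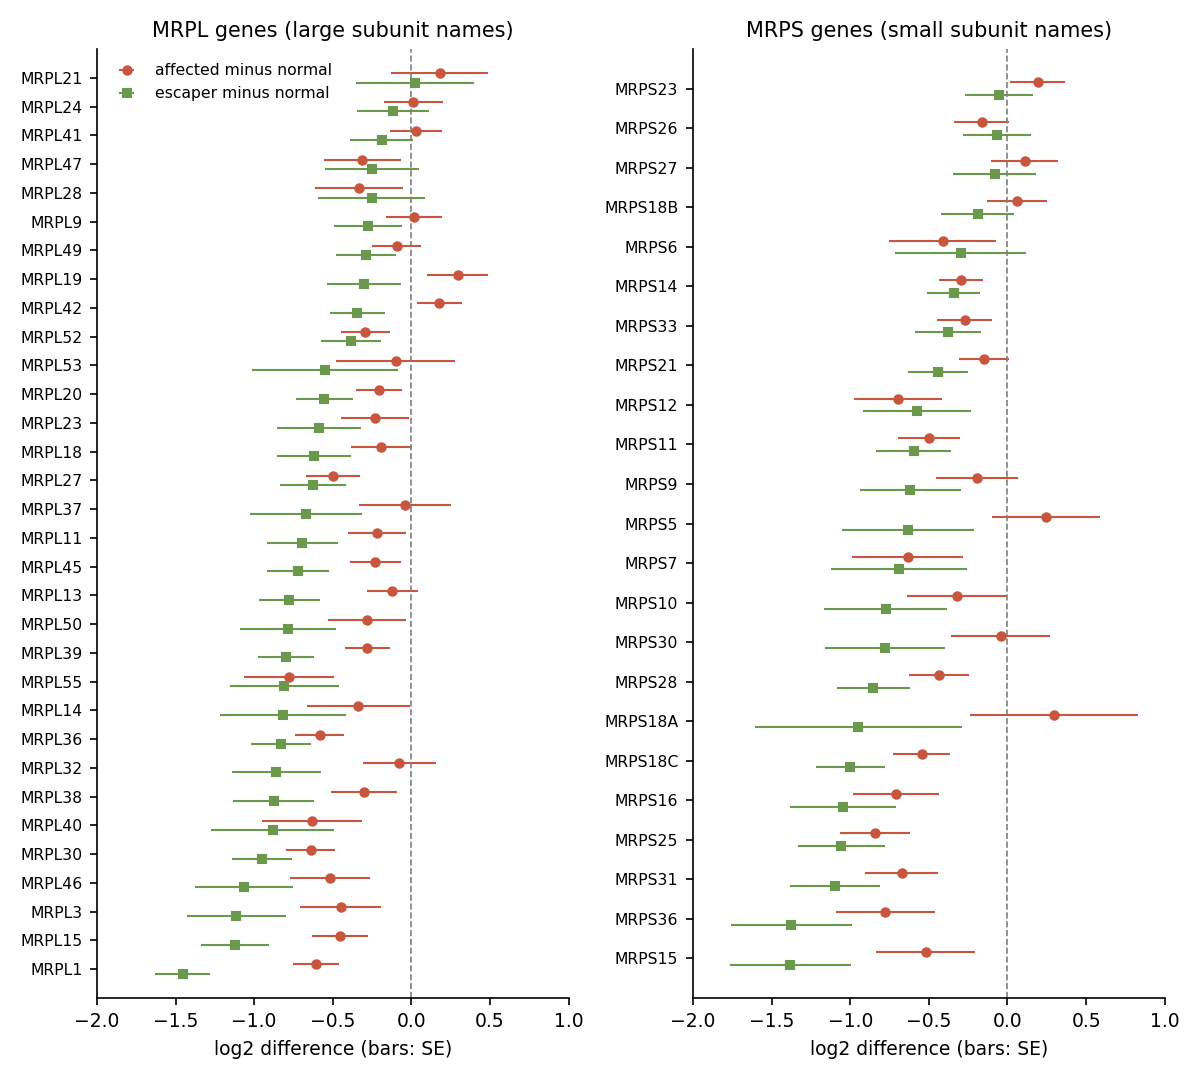
Log2 difference from normal dogs with its SE (x axis) for each MRPL gene (left) and MRPS gene (right), for affected dogs (circles) and escapers (squares), ordered by the escaper value. Escaper points lie left of 0 for 54 of 55 genes and affected points for 44, and MRPL1 has the lowest escaper value, −1.46.

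Another 20 probes carry a mitochondrial ribosomal protein only in their description. Some may measure genes already in the set, so they are no independent count. All 19 that were tested were below 0 in both comparisons with normal dogs, with medians of −0.38 in affected dogs and −0.75 in escapers, which was −0.41 without escaper 2. At an unadjusted p under 0.05, 8 and 14 of them were lower, against 7.38% and 8.78% of all probes. Of 4 measured subunits that carry other names, none reached an unadjusted p under 0.05 in escaper minus normal. GADD45GIP1, a large subunit protein, was the only one to do so in affected minus normal, at −0.46. In escaper minus normal it had −0.49, and CHCHD1 of the small subunit had −0.41. DAP3, a GTP-binding protein of the small subunit, differed from normal by −0.04 in affected dogs and −0.15 in escapers, and PTCD3, an RNA-binding small subunit protein, by 0.07 and −0.19.

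The genes whose products work with the mitoribosome were less uniform in affected dogs. Of 9 translation factors, 2 were lower in affected dogs and 3 in escapers at an unadjusted p under 0.05, and 0 were higher. Over all probes 7.38% and 8.78% were lower, and 5.06% and 9.67% higher. The medians of the 9 factors were −0.07 and −0.59. The first was −0.20 without affected 1 and 0.05 without affected 4, and the second −0.13 without escaper 2 and −1.08 without escaper 1. In GFM1, an elongation factor, the differences were −0.80 and −1.08. In MTRF1, of the release factor family, they were −0.67 and −1.10, and in LRPPRC, which stabilises mitochondrial messenger RNA, −0.35 and −0.999. TUFM, the factor that brings aminoacyl transfer RNA to the ribosome, had −0.07 and −0.60. Among 4 assembly genes, ERAL1, a chaperone of the small subunit RNA, had −0.25 and −0.71, RPUSD4 0.15 and −0.02, and DDX28 −0.07 and −0.28. TFB1M alone of the 4 was above 0 in escapers, at 0.24, and the medians of the 4 were −0.02 and −0.15.

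Of 8 genes for making mitochondrial aminoacyl transfer RNA, 1 (12.5%) was lower at an unadjusted p under 0.05 in each comparison with normal dogs. That count is near the 7.38% and 8.78% of all probes. The gene was GATC, at −0.51 and −1.07, which encodes an amidotransferase subunit and not a synthetase. No synthetase of the list was lower at that level. The medians were −0.01, which changed sign with the dog left out (−0.12 without normal 2, 0.09 without normal 4), and −0.22, which was 0.07 without escaper 2. CARS2 had 0.34 in affected dogs and IARS2 had −0.48 in escapers. Of 8 genes for mitochondrial DNA and its transcription, 1 and 4 were lower (12.5% and 50%, against 7.38% and 8.78% of all probes). Their medians were −0.15 (−0.08 without affected 3 or affected 4) and −0.37 (−0.17 without escaper 2). TFB2M, a mitochondrial transcription factor, had −0.54 and −1.23, TFAM, which packages mitochondrial DNA, −0.27 and −0.53, and HSD17B10 −0.49 and −0.20.

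Of 8 regulators of mitochondrial biogenesis, 0 and 3 were lower at an unadjusted p under 0.05, against 7.38% and 8.78% of all probes. They did not move together, as 4 were above 0 in affected dogs and 3 in escapers. The medians were −0.09 (−0.01 without affected 4) and −0.42 (−0.28 without escaper 2). Single genes ran from −1.10 to 0.99 and from −1.77 to 1.93. PPARGC1A, a coactivator that drives mitochondrial genes, had 0.04, 0.19, 0.07 and 0.22 in normal dogs, −2.51, −0.06, −0.41 and −0.89 in affected dogs, and −0.33 and −2.94 in escapers. All dystrophic dogs lay below the normal dogs, with affected 1 and escaper 2 far below the others. The receptor gene ESRRA had differences of −0.40 and −0.59. Of 12 import and mass genes, 2 and 5 were lower (16.7% and 41.7%, against 7.38% and 8.78% of all probes). Their medians were −0.17 (−0.09 without affected 4) and −0.56 (−0.23 without escaper 2 and −0.86 without escaper 1). Among the 12 were TIMM17A (−0.51 and −0.86), LONP1 (−0.26 and −0.58) and VDAC2 (−0.83 and −1.12).

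The nuclear genes of oxidative phosphorylation, whose products join those made by the mitoribosome, were lower too, and by more than the mitoribosomal genes in the affected dogs. All 36 measured genes were below 0 in both comparisons with normal dogs, with medians of −0.83 and −1.10. At an unadjusted p under 0.05, 15 and 18 were lower, against 7.38% and 8.78% of all probes. The complex I genes NDUFA3 (−1.55 and −1.51), NDUFA5 (−0.95 and −1.57) and NDUFA2 (−0.98 and −1.30) and the ATP synthase gene ATP5PF (−1.16 and −1.29) were the named examples. Without escaper 2 their median in escaper minus normal was −0.28, close to the −0.29 of the mitoribosomal genes, and without escaper 1 it was −1.91. Cytosolic ribosomal protein genes had medians of the opposite sign, which turned to −0.21 in escapers and shrank to 0.01 in affected dogs with median centring. Of 26 measured, 21 and 22 were above 0, with medians of 0.16 (0.10 without affected 2) and 0.36 (0.22 without escaper 2). At an unadjusted p under 0.05, 0 and 8 were higher, against 5.06% and 9.67% of all probes. RPS9 and RPL35 were higher in escapers by 0.85 and 0.88 on the log2 scale, and RPL8 had 0.33 in affected minus normal. RPL35 was saturated on 10 of 20 arrays and RPS9 on 3, so their sizes may be distorted, while RPL8 was saturated on 0. Genes of the oxidative phosphorylation list were saturated too, such as NDUFAB1 on 12 arrays, but not the 4 named above. None of these genes passed limma's adjusted test.

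The mitoribosomal and oxidative phosphorylation lists parted in affected 1. Its mean over the 55 mitoribosomal genes was 0.07, the highest of the 4 affected dogs, whose others had 0.03, −0.04 and −0.08. Its mean over the 36 oxidative phosphorylation genes was −0.88, the lowest of the affected dogs, whose others had 0.34, 0.10 and −0.07. Affected 1 was the highest of all 10 dogs in 16 of 55 mitoribosomal genes (29.1%), a rank it held in 24.9% of all probes. In escaper 2 both lists were low, at −0.73 and −1.21, and in escaper 1 they were −0.03 and 0.44, against normal ranges of 0.21 to 0.42 and 0.57 to 0.84. Escaper 1 was thus below the normal range by both means.

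**Figure D5:**
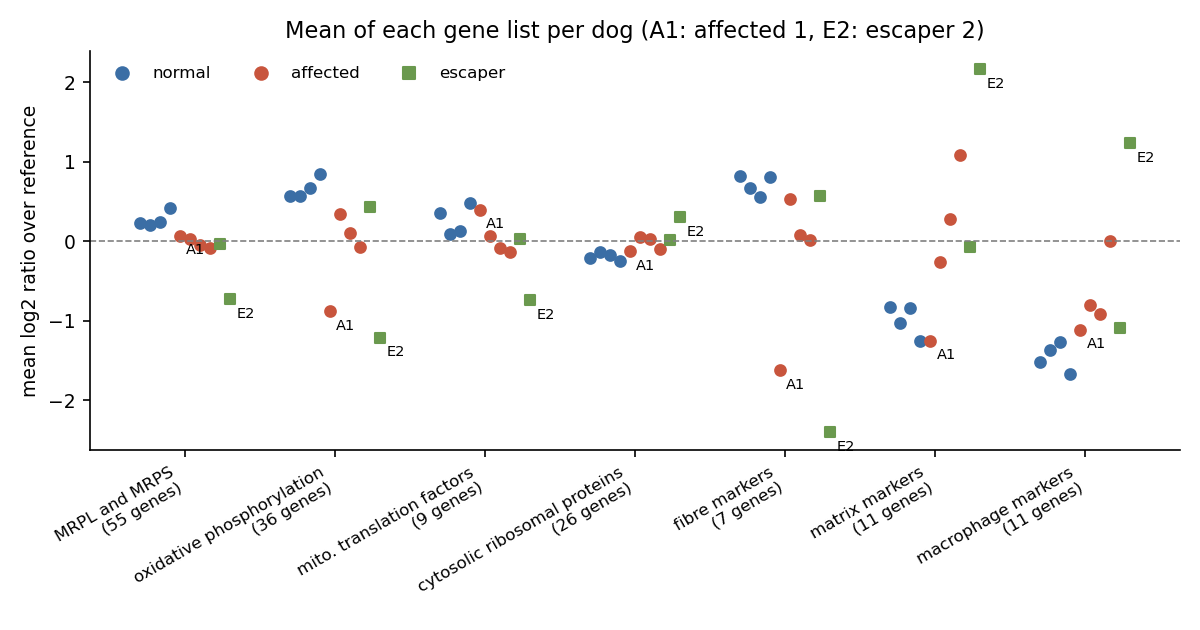
Mean log2 ratio over the reference (y axis) of 7 gene lists (x axis) in each dog, with affected 1 (A1) and escaper 2 (E2) marked. E2 has the lowest mitoribosomal mean, −0.73, and the highest matrix marker mean, 2.17, while A1 has a mitoribosomal mean of 0.07 beside −0.88 for oxidative phosphorylation and −1.62 for fibre markers.

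Markers of other cell types moved with these results. Macrophage markers were above 0 for 10 of 11 genes in affected minus normal and 11 of 11 in escaper minus normal, with medians of 0.71, which was 0.41 without affected 4, and 1.50, which was 0.33 without escaper 2 and 2.88 without escaper 1. Their mean ran from −1.66 to −1.27 in normal dogs and from −1.11 to 0.0088 in affected dogs, and was −1.10 and 1.24 in the escapers. Among them LGALS3 was higher by 2.48 and 2.55 and ITGB2 by 0.91 in escapers, and C1QB by 0.97 in affected dogs.

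Of the matrix markers, COL1A1 and POSTN were well above background on only 4 of 20 arrays and PDGFRA on 6. These entered the list through few dogs, so the filter may set part of their sign. Matrix markers were above 0 for all 11 genes in both comparisons, with medians of 0.94 and 2.17. Without affected 4 the first was 0.39, with 10 of 11 genes above 0, and without escaper 2 the second was 0.62, also with 10 of 11. Their mean ran from −1.25 to −0.82 in normal and from −1.25 to 1.09 in affected dogs, and was −0.08 and 2.17 in the escapers. COL5A2 and COL1A2 were higher in affected dogs by 1.87 and 1.74, and SPARC and COL5A1 in escapers by 2.30 and 1.69. A marker counted as measured only if well above background on both arrays of at least 2 dogs, so none could be below background throughout.

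All 7 fibre markers were below 0 in both comparisons, with medians of −0.59 (−0.04 without affected 1) and −1.63 (−0.02 without escaper 2 and −3.35 without escaper 1), among them PYGM (−1.85 and −2.53) and CKMT2 (−2.11 and −2.87), the mitochondrial creatine kinase. Endothelial markers had medians of −0.33 and 0.23 over 4 genes (in escapers −0.38 without escaper 2, 0.77 without escaper 1 and −0.15 with median centring), with KDR at −1.001 and TIE1 at −0.35 in affected dogs and PECAM1 and VWF at 0.38 and 0.32 in escapers. Adipocyte markers had medians of 0.01 and 0.05 over 6 genes, whose signs changed with the dog left out (−0.04 without normal 3, −0.07 without escaper 1) and which were −0.31 and −0.14 on the Agilent processed signals, with CFD at 0.93 and 1.55, LEP at −0.15 in affected dogs and LPL at −1.15 in escapers. In whole muscle, fewer cells of a type and less RNA per cell cannot be told apart, and the part of these lists in the mitoribosomal result was not tested. In affected 1 the fibre marker mean was −1.62, the lowest of the affected dogs, and the mitoribosomal mean was 0.07, the highest of them. In escaper 2 both means were the lowest of all 10 dogs, at −2.40 and −0.73. Without affected 1 the mitoribosomal median of affected minus normal was −0.30.

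Over the 55 genes, the difference was weakly related to the base composition of the probe in both escaper comparisons. Pearson's r with the probe's GC content was 0.01 for affected minus normal, 0.35 for escaper minus normal and 0.43 for escaper minus affected, against −0.0024, 0.01 and 0.02 over all 16008 probes. The correlation with mean log2 intensity was −0.16, −0.26 and −0.16. All genes share the same 10 dogs and the same reference, so these values describe the set only. The MRPL1 probe has 36.7% GC and the MRPL36 probe 58.3%, and the 55 probes range from 35% to 70% GC.

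MRPL46 and MRPS11 are next to each other in the RefSeq gene table, the only pair of neighbours among the members, and were picked for this position with their values known. MRPL46 differed from normal by −0.52 ± 0.25 in affected dogs and −1.07 ± 0.31 in escapers, and MRPS11 by −0.50 ± 0.20 and −0.60 ± 0.24 (SE, adjusted p from 0.1909 to 0.4415, limma). In escapers 1 and 2 the MRPL46 ratios were 0.04 and −1.18 and those of MRPS11 were −0.02 and −0.49, so escaper 2 was lower in both.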

How the data were processed

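Muscle RNA of 10 dogs was hybridised on 20 canine 2-colour Agilent arrays. Per the file headers, the authors scanned them with Agilent Feature Extraction 9.5.3.1, and the deposited files list each spot's mean and local background intensity in red and green. A deposited table of log2 values, an alternative here, matched the dog over reference ratio of the files' processed signals. How it was centred is not given in the sources used here.

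Intensities were corrected with normexp (offset 50) and loess in limma 3.58.1 (R 4.3.3), flagged spots left out, ratios turned to dog over reference, and the 2 arrays of a dog averaged. Where a spot was flagged on 1 array, the other array gave the dog's value. Probes well above background on both arrays of at least 2 dogs, with a value in every dog, were tested (16008 of 42034). A single fit over all 10 dogs gave the 3 comparisons, with Benjamini-Hochberg adjustment over all tested probes and a threshold of 0.05, and was tested on simulated data. A gene with several probes is represented by the brightest on average. SD rests on 4, 4 and 2 dogs. SE and confidence intervals rest on a spread pooled over the 3 groups and moderated over all tested probes, so the escaper SE borrows the spread of the other groups. The SD of the mean over the 55 genes was 0.10, 0.07 and 0.49 in normal, affected and escaper dogs. The number of dogs limits the precision.

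The members and lists were chosen with earlier results of these data known. Named members are those that passed the test, the 6 smallest p in each direction of each comparison, and genes with 2 or more tested probes. In the other lists the 2 genes with the smallest p in each comparison with normal dogs and a few set regulators are named, except 1 gene that is not reported here. RefSeq's table of dog genes held 57 of the 58 symbols and gave neighbours only. Alternatives covered background correction, centring, filters, slide, arrays, variance model, dye, probe choice, saturation, the value table and each dog left out.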

Additional observations from a re-analysis of the deposited data

Results flagged for a closer look

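In groups of 4 dogs, 86 sets of values were examined for a dog far from the other 3 by Dixon's ratio, and 4 exceeded it. Chance alone flags about 1 in 20 such sets. Normal 4 had the highest mean over the 55 mitoribosomal genes, 0.42, against 0.21 to 0.24 in the other normal dogs. It also had the highest mean over the mitochondrial DNA and transcription list, 0.15, against 0.0041 to 0.03, and the highest MRPL15 ratio, 0.50, against 0.37 to 0.39. Affected 1 had an MRPS18A ratio of 1.93, against −0.49 to −0.10 in the other affected dogs.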

How the results depend on the processing

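The medians of affected minus normal, and the direction of the set's median in all 3 comparisons, kept their sign under every alternative run. No paired analysis was possible because the labels name dogs and give the groups no shared replicate numbers. With only the Cy3 arrays, 8 of 47 genes were lower in affected dogs (4.89% of all probes), and 1 member passed the adjusted test with only the 2 groups in the fit (0.706% of all probes). Median centring gave −0.99 for escaper minus normal and −0.67 with 14 lower genes for escaper minus affected, while the all-probe median became −0.17 and −0.18 and 3.95% of all probes were lower in the last. Slide as a random block had a consensus correlation of −0.27, and a negative value lowers the SE of a group mean. A fit of all 20 arrays blocked by dog counts both arrays of each dog. The slide fit and this fit each gave 14 members past the adjusted test in escaper minus normal (3.26% and 6.67% of all probes). In escaper minus affected they gave 17 and 13 lower genes (5.26% and 3.66% of all probes). That last count was 13 of 58 without a filter on dim probes, 4 of 55 with only the 2 groups and 5 of 51 with only Cy5 arrays, where 2.3%, 0.562% and 2.18% of all probes were lower. The cause was not tested.

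Over the 10 dogs left out in turn, lower genes ranged from 7 to 20, 10 to 37 and 1 to 30 in affected minus normal, escaper minus normal and escaper minus affected. Members past the adjusted test ranged from 0 to 1, 0 to 30 and 0 to 12, with 1 in escaper minus normal without affected 1 (MRPL1). Medians ranged from −0.32 to −0.20, −0.97 to −0.29 and −0.73 to −0.0118. For single named genes, 1817 values kept their sign and their side of the threshold, 42 passed the threshold only under the alternative, and 64 differed in sign. Changes in size alone were not counted. Aquantile leaves ratios unchanged by construction. Signal over background limits a second probe of MRPL21 and the genes MRPL47, MRPL49, MRPS14 and MRPS27, which were not well above background on every array.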
